A study of Homo sapiens with 18 samples.

Results

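The CAMK2 genes encode the subunits of calcium/calmodulin-dependent protein kinase II. The genes described here are CAMK2B, CAMK2D and CAMK2G, which were 3 of 15358 genes listed for MCF10A cells and 3 of 15257 listed for hTERT RPE-1 cells. They were taken as a family, and CAMK2B was chosen by its low level after mimic treatment of MCF10A cells, where it is among the transcripts with the deepest falls. The values of CAMK2B in MCF10A are therefore given as a description, without a test. All 3 genes were among the 14726 genes tested in MCF10A and the 14527 tested in hTERT RPE-1.

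RNAseq of polyadenylated RNA was carried out on 18 libraries from 2 established human cell lines. MCF10A is a non-tumorigenic mammary epithelial line, and hTERT RPE-1 is a retinal pigment epithelial line immortalized with telomerase. In each line, cells received the non-targeting siRNA siNT, a mimic of hsa-miR-28-5p (miR-28) or a mimic of hsa-miR-708-5p (miR-708) at 30 nM for 72 h, with 3 biological replicates per group. The control shared by both mimics is thus an siRNA and not a mimic, and each comparison with siNT uses the same 3 siNT libraries of its line. The MCF10A libraries carry the replicate numbers 7, 8 and 9, and the hTERT RPE-1 libraries 1, 2 and 3.

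A microRNA mimic is a double-stranded RNA that supplies a mature microRNA to the cell. The mature strand guides Argonaute proteins to messenger RNAs whose 3′ UTR pairs with its seed, bases 2 to 8, and such pairing lowers the level or the translation of the transcript. CaMKII is a ring-shaped holoenzyme whose subunits are activated by calcium-loaded calmodulin, after which they phosphorylate one another and stay active beyond the calcium pulse. CAMK2A and CAMK2B are best known from neurons, where the kinase acts in synaptic plasticity, while CAMK2D and CAMK2G are found in most tissues and CAMK2D is the main form of heart muscle.

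To show where the miR-708 seed could pair with these transcripts, its mature sequence from RefSeq (GRCh38.p14) is given with the seed in capitals. The hsa-miR-28-5p mimic is named only, without its sequence. The authors state that both mimics share the same seed. The matches below thus apply to either mimic.
hsa-miR-708-5p: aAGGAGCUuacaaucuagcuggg

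The 3′ UTRs of the 3 genes were searched on the sense strand for the 6mer GCTCCT, which pairs with part of this seed. The 7mer AGCTCCT, which pairs with the whole seed, and the 7mer GCTCCTA were also searched. The last A of GCTCCTA lies outside the seed pairing, and each 7mer contains the 6mer. CAMK2B held 3 separate 6mers and no 7mer in a 3′ UTR of 2371 nt. CAMK2D held a single match, a 7mer, in 3513 nt. CAMK2G held a 7mer and a separate 6mer in 2017 nt. All matches lie in the last exon of the gene. Each is given with its flanks, 5′ to 3′ on the transcript (hg38, minus strand), with the match in capitals.
CAMK2B match at chr7:44219178-44219205: tgtccgtctgtGCTCCTggcctctgggg
CAMK2B match at chr7:44217974-44218001: tctagccctgtGCTCCTgagcgtcggct
CAMK2B match at chr7:44217799-44217826: gagggtcagggGCTCCTgccccagtgcc
CAMK2D match at chr4:113452054-113452081: caagcaccccAGCTCCTgctactcccca
CAMK2G match at chr10:73814040-73814067: atgtgattgcAGCTCCTgaggtggcctg
CAMK2G match at chr10:73812896-73812923: gatttagccagGCTCCTccgagcacctc

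Among 12915 genes tested in MCF10A with a 3′ UTR in the annotation, 35.64% held the 6mer, alone or within a 7mer, and 18.66% held a 7mer. Longer 3′ UTRs hold such letters more often. Of the 1817 genes whose 3′ UTR is about as long as that of CAMK2B (0.8 to 1.2 times its length), 45.46% held the 6mer and 6.16% held it at least 3 times. Among the 1587 genes with a 3′ UTR about as long as that of CAMK2D, 30.81% held a 7mer, and the share was 20.32% of 1841 genes for CAMK2G. A match is a description of these letters, and binding was not measured.

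CAMK2B, which encodes the beta subunit that ties the kinase to actin filaments, was at 399, 273 and 364 in the siNT libraries of MCF10A (replicates 7, 8 and 9). A value here is an estimated read count divided by the size factor of its library. With miR-28 it was at 63.0, 51.4 and 34.5. With miR-708 it was at 49.98, 39.2 and 15.3. Every mimic library was below every siNT library, and the libraries of the mimics overlapped each other.

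The log2 fold change of CAMK2B in MCF10A was −2.80 with miR-28, or a fold of 0.144. With miR-708 it was −3.41, or a fold of 0.0941. With each library left out in turn, these values ranged from −2.99 to −2.56 and from −3.74 to −2.92. These and all fold changes are on the log2(value + 1) scale, which understates the change of low genes. CAMK2B was in place 5 from the lowest among 14726 genes by the mean log2 fold change of both mimics, which was −3.10. The long non-coding RNA LOC101927136 stood just before it at −3.11, and the imprinted non-coding RNA H19 stood just after it at −3.10. The selection of CAMK2B used this contrast, so its place is not a result. Among all genes tested in MCF10A, 12.0% were called lower and 10.7% higher with miR-28 at an adjusted p below 0.05 (limma, Benjamini-Hochberg), and with miR-708 17.3% were called lower and 15.5% higher.

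In MCF10A, CAMK2B was 0.61 lower on the log2 scale with miR-708 than with miR-28 (difference −0.61), where the libraries overlapped. Between the mimics, 1.55% of all genes tested in MCF10A were called. Without replicate 9 of miR-708, the lowest library, the difference was −0.12.

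CAMK2B was close to the detection floor in hTERT RPE-1 cells that received siNT. Its values were 2.59, 3.04 and 5.87 (replicates 1, 2 and 3), which stand for 3, 3 and 4 reads. With miR-28 the values were 14.2, 27.2 and 11.6, and with miR-708 they were 19.6, 36.1 and 17.9. All 6 mimic libraries were above all siNT libraries. The gene passed the filter on low values (at least 10 in at least 3 of 9 libraries) only through the mimic groups.

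CAMK2B was thus higher with both mimics in hTERT RPE-1 and lower in MCF10A. A gene that enters through the groups where it is high had to differ, so no test against siNT is given for CAMK2B in hTERT RPE-1. Summed over 3 libraries, miR-28 gave 52 reads and siNT 10, a ratio per depth of 5.17. For miR-708 the sum was 84 reads and the ratio 6.78. These ratios are a description and rest on the 10 siNT reads. The fitted log2 fold changes were 1.92 and 2.39, and with a pseudocount of 10 in place of 1 they were 0.97 and 1.29. Of all genes tested in hTERT RPE-1, 23.3% were called higher and 23.5% lower with miR-28, and 30.9% were called higher and 31.2% lower with miR-708. The mimics differed from each other by 0.47 (95% interval −0.52 to 1.46, adjusted p = 0.487 by limma), while 21.2% of all genes tested were called between them.

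CAMK2D, which encodes the delta subunit, was expressed in both lines and rose only in the hTERT RPE-1 comparisons. In the siNT libraries of hTERT RPE-1 it was at 2598, 2454 and 3139. With miR-28 it was at 3704, 4297 and 4549, and with miR-708 at 3703, 3801 and 4754. The lowest mimic library was above the highest siNT library. The share of all genes whose groups separate in this way was not counted, so separations are given as a description for each CAMK2 gene.

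The log2 fold change of CAMK2D in hTERT RPE-1 was 0.62 with miR-28 (SE 0.13, adjusted p = 0.00282 by limma), a fold of 1.54. It was 0.58 with miR-708 (SE 0.13, adjusted p = 0.00253 by limma), a fold of 1.495. Between the mimics the difference was −0.04 (95% interval −0.32 to 0.25, adjusted p = 0.864 by limma). Both calls remained in each alternative tried, with adjusted p-values of at most 0.0148.

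In MCF10A, CAMK2D was at 2138, 1873 and 1972 in siNT libraries. With miR-28 it was at 1621, 1839 and 1638, each below the lowest siNT library. With miR-708 it was at 2120, 1967 and 1960, within the range of siNT. The log2 fold change with miR-28 was −0.23 (95% interval −0.43 to −0.03), and it did not pass the threshold after adjustment (adjusted p = 0.0948, limma). With miR-708 it was 0.02 (95% interval −0.19 to 0.22, adjusted p = 0.912 by limma), and the difference between the mimics was 0.25 (95% interval 0.04 to 0.45, adjusted p = 0.232 by limma).

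CAMK2G, which encodes the gamma subunit, was lower in hTERT RPE-1 with both mimics, by a small amount. Its siNT values there were 2035, 2136 and 2009. With miR-28 the values were 1727, 1787 and 1588, and with miR-708 they were 1709, 1778 and 1673. All mimic libraries were below all siNT libraries.

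CAMK2G fell by 0.28 on the log2 scale with miR-28 (log2 fold change −0.28, SE 0.08, adjusted p = 0.0132 by limma) and by 0.26 with miR-708 (−0.26, SE 0.08, adjusted p = 0.0131 by limma) in hTERT RPE-1. These calls depend on the scaling. With libraries scaled to an equal sum, which moves the median of all genes by 0.09 with miR-28 and 0.32 with miR-708, the log2 fold changes were −0.19 (adjusted p = 0.0837) and 0.06 (adjusted p = 0.559). Without siNT replicate 2 the adjusted p-values were 0.0533 with miR-28 and 0.0519 with miR-708, and without miR-28 replicate 3 it was 0.054 with miR-28. The mimics differed by 0.02 (95% interval −0.15 to 0.19, adjusted p = 0.896 by limma).

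CAMK2G in MCF10A was at 742, 685 and 649 with siNT, at 713, 655 and 655 with miR-28, and at 681, 588 and 560 with miR-708. The groups overlapped. Neither log2 fold change passed the threshold in limma, with −0.04 for miR-28 (95% interval −0.28 to 0.21, adjusted p = 0.848) and −0.18 for miR-708 (95% interval −0.43 to 0.06, adjusted p = 0.235). The difference between the mimics was −0.15 (95% interval −0.40 to 0.10, adjusted p = 0.557 by limma).

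**Figure D1:**
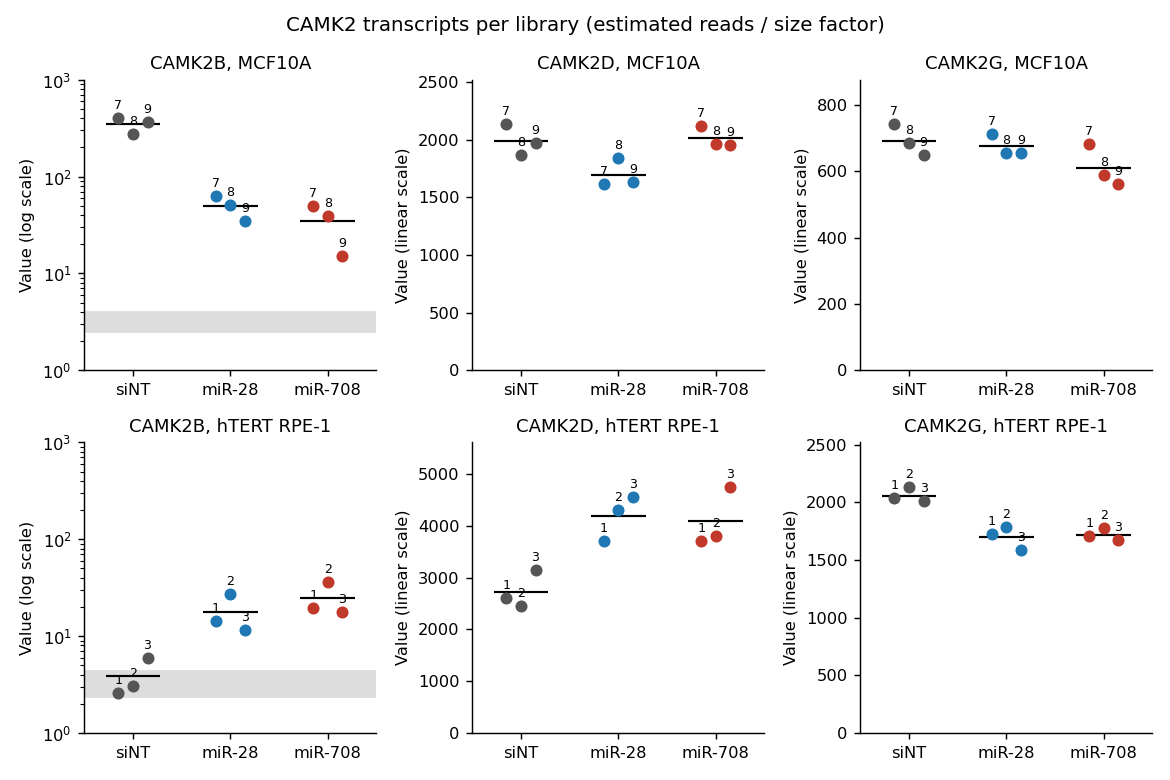
Values of CAMK2B (log axis), CAMK2D and CAMK2G (linear axes from 0) in each library of MCF10A (top) and hTERT RPE-1 (bottom), as estimated reads divided by the size factor. Points are libraries with their replicate number, lines are group means, and the grey band is the value of 3 reads over the libraries of a line. CAMK2B sits at 15.3 to 63.0 in the mimic libraries of MCF10A, below all siNT libraries, and at 11.6 to 36.1 in those of hTERT RPE-1, above all siNT libraries.

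The remaining member of the kinase family, CAMK2A, encodes the alpha subunit of neurons. It was listed for hTERT RPE-1 only. It was at 65.6, 69.9 and 48.4 with siNT, at 61.1, 55.3 and 46.6 with miR-28, and at 42.4, 50.4 and 36.6 with miR-708. Its log2 fold changes were −0.16 (adjusted p = 0.58 by limma) and −0.49 (adjusted p = 0.0801 by limma).

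To ask whether the lines differed in their response, the log2 fold change of MCF10A was subtracted from that of hTERT RPE-1 over the 13339 genes tested in both lines. For CAMK2D the difference was 0.85 with miR-28 (SE 0.16, adjusted p = 0.000959) and 0.56 with miR-708 (SE 0.16, adjusted p = 0.00805), from limma estimates. CAMK2D thus responded higher in hTERT RPE-1 than in MCF10A to both mimics. For CAMK2G the differences were −0.24 (95% interval −0.53 to 0.04, adjusted p = 0.209 by limma) and −0.08 (95% interval −0.36 to 0.21, adjusted p = 0.692 by limma). For CAMK2B they were 4.72 and 5.80, which are given without a test. Of all genes, 23.4% were called for a difference between lines with miR-28 and 39.8% with miR-708. Each line was handled and scaled on its own, so the line and its batch of libraries cannot be told apart.

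**Figure D2:**
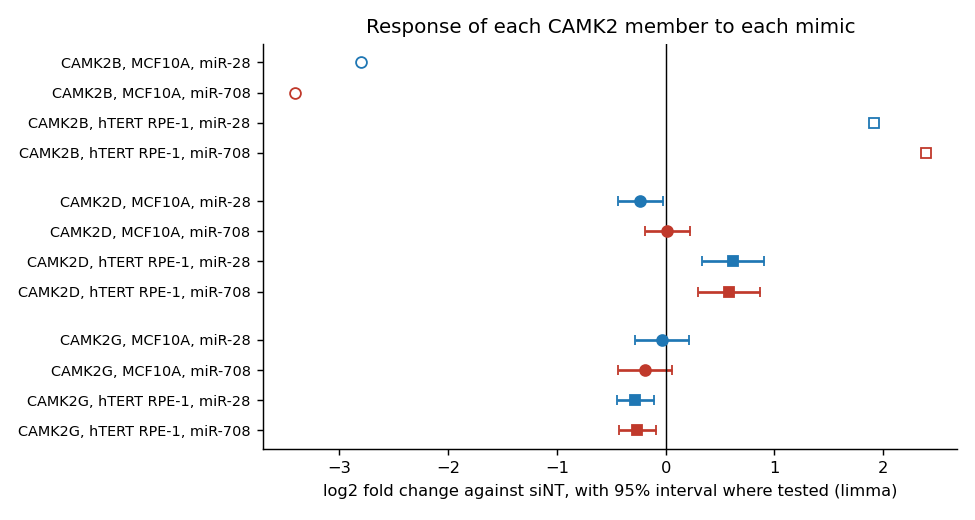
The log2 fold change against siNT (x axis) of each CAMK2 member with each mimic in each line, with 95% intervals from limma for CAMK2D and CAMK2G. Circles are MCF10A and squares hTERT RPE-1, blue is miR-28 and red is miR-708, and open symbols without an interval are CAMK2B, which was not tested against siNT. The CAMK2B points lie at −2.80 and −3.41 in MCF10A and at 1.92 and 2.39 in hTERT RPE-1.

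Levels of the 3 genes were compared with one another per length, as the value per kb of the MANE Select transcript (4545 nt for CAMK2B, 5785 nt for CAMK2D and 3878 nt for CAMK2G), and as shares of their sum. In MCF10A with siNT, CAMK2D made up 57.6% ± 0.513 of the summed level, CAMK2G 29.8% ± 1.55 and CAMK2B 12.6% ± 1.64 (SD, n = 3). With miR-28 the share of CAMK2B was 2.27% ± 0.625, and with miR-708 it was 1.47% ± 0.686 (SD, n = 3). CAMK2D and CAMK2G then accounted for nearly all CAMK2 transcripts per length in both lines.

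In hTERT RPE-1 the larger share was that of CAMK2G with siNT and that of CAMK2D with each mimic. With siNT, CAMK2G made up 53.0% ± 3.90 and CAMK2D 46.9% ± 3.87, and these neighbours lay within 2 SD of each other (SD, n = 3). With miR-28, CAMK2D made up 61.9% ± 3.43 and CAMK2G 37.7% ± 3.38, and with miR-708 they made up 61.0% ± 3.84 and 38.6% ± 3.69 (SD, n = 3). CAMK2B stayed below 1 percent in each group, at 0.0829% ± 0.0339, 0.332% ± 0.146 and 0.473% ± 0.208 with siNT, miR-28 and miR-708 (SD, n = 3). Shares of CAMK2D were lower when the length of all exons together was used, at 41.3% for siNT and 56.5% and 55.5% for the mimics in hTERT RPE-1.

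The summed level per kb was 599 ± 45.1 with siNT in MCF10A, 479 ± 19.2 with miR-28 and 513 ± 35.2 with miR-708 (SD, n = 3). In hTERT RPE-1 it was 1004 ± 50.2, 1165 ± 66.8 and 1155 ± 90.3 (SD, n = 3). Each mimic mean was below siNT in MCF10A and above it in hTERT RPE-1. The sum includes CAMK2B, which was chosen by its low level with the mimics in MCF10A. Among these genes, CAMK2B had the largest drop per kb there with each mimic. CAMK2D per kb was below siNT with miR-28 but not with miR-708, and CAMK2G was below it with both. The lower sum in MCF10A thus restates the choice of CAMK2B in large part, and it is not a separate result.

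**Figure D3:**
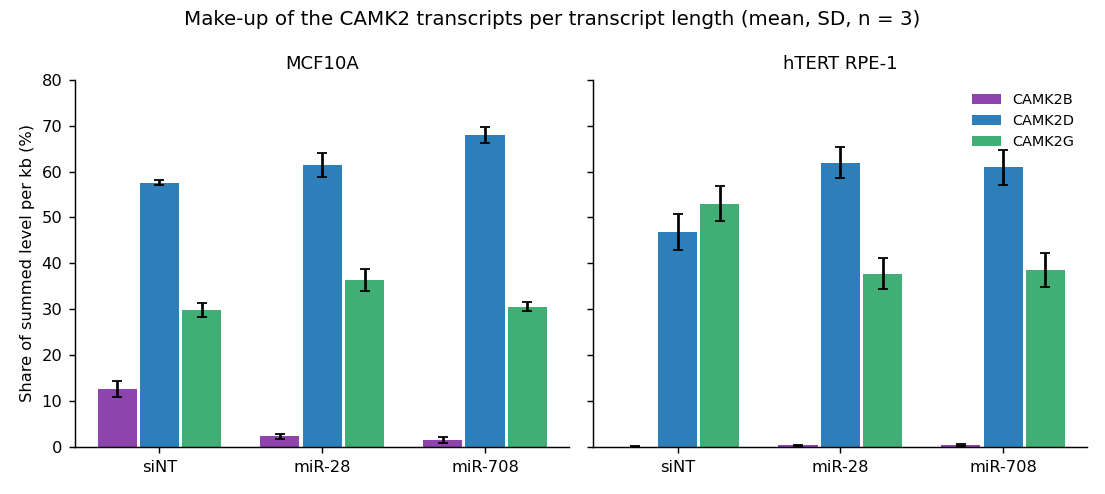
Share of the summed CAMK2 level per kb of transcript (y axis, percent, from 0) held by CAMK2B, CAMK2D and CAMK2G in each group of each line. Bars are means and error bars the SD of 3 libraries. CAMK2B is at 12.6% with siNT in MCF10A and near 0 in hTERT RPE-1, where CAMK2D is the larger share with either mimic.

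CAMK2B lies at chr7:44217154-44326013 on the minus strand of GRCh38.p14 (gene ID 816) and overlaps LOC124901621. Whether the quantification used strand is not given in the sources used here, and overlap of their exons was not checked. Whether the genes share reads was thus not tested. CAMK2D lies at chr4:113451032-113761738 (gene ID 817) and CAMK2G at chr10:73812501-73874555 (gene ID 818), both on the minus strand. The members are paralogs with similar coding sequence, and how reads were shared between them was not tested.

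The tested genes next to CAMK2B did not pass the threshold in MCF10A. YKT6, a SNARE protein of vesicle transport, was at −0.07 with both mimics (adjusted p = 0.704 and 0.704, limma). NUDCD3 was at 0.20 and 0.24 (adjusted p = 0.188 and 0.0987, limma). In hTERT RPE-1, where CAMK2B was higher, YKT6 fell with both mimics (−0.49 and −0.68, adjusted p = 0.00072 and 3.67e-05 by limma). NUDCD3 was at 0.26 and 0.31 there (adjusted p = 0.0904 and 0.0383, limma) and was called higher with miR-708.

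The genes next to CAMK2D, ANK2 and ARSJ, and those next to CAMK2G, NDST2 and PLAU, had patterns of their own. In hTERT RPE-1, ARSJ was at −0.74 and −1.29 (adjusted p = 0.00865 and 0.000167, limma), where CAMK2D rose. ARSJ was also called lower in MCF10A (−0.52 and −0.44, adjusted p = 0.00457 and 0.00623, limma), where CAMK2D was not called. PLAU, which encodes the urokinase plasminogen activator, was at 0.76 and 1.11 in hTERT RPE-1 (adjusted p = 0.00158 and 6.53e-05, limma), where CAMK2G was lower. ANK2 and NDST2 did not pass the threshold with either mimic in either line.

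The genes whose values ran most nearly in parallel with each member were picked by Pearson's r of log2(value + 1) over the 9 libraries of a line, as a description. The 9 libraries form 3 groups, so r reflects mainly the group means. For CAMK2B in MCF10A they were the ubiquitin-conjugating enzyme gene UBE2R2 (r = 0.9914), the kinase gene GSK3A (0.9901) and the adaptor gene GRB14 (0.9901). The fold changes of these genes were smaller than those of CAMK2B, at −1.08 and −1.21 for UBE2R2, −1.06 and −1.34 for GSK3A, and −1.23 and −1.68 for GRB14.

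In hTERT RPE-1, CAMK2B ran closest to ZNF254 (r = 0.9908), KANSL1L (0.9889) and ZNF222 (0.9871) among 11440 genes. CAMK2D there ran closest to CD274 (0.9748), which encodes the immune checkpoint ligand PD-L1, SNAI2 (0.9686), a transcription factor of the epithelial-mesenchymal transition, and PLGLB2 (0.9681), which has a near-identical copy and is uncertain. CD274 was at 1434 with siNT, 4299 with miR-28 and 4165 with miR-708. CAMK2G ran closest to RUNDC1 (0.9866), VHL (0.9771), the von Hippel-Lindau tumor suppressor, and LNPK (0.9766).

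In MCF10A, where neither CAMK2D nor CAMK2G was called, the closest genes to CAMK2D were CYLD (0.9422), CNOT8 (0.9414) and TLK2 (0.9356). For CAMK2G they were CDK14 (0.9602), PRRC1 (0.9584) and MECOM (0.9558).

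The rest of the pathway was read from a list of 81 genes in 6 roles, of which 65 were tested in each line. In MCF10A, 4 of 65 were called lower and 7 higher with miR-28, and 8 were lower and 12 higher with miR-708. Over all genes, the shares called lower and higher in MCF10A were 12.0% and 10.7%, and 17.3% and 15.5%. In hTERT RPE-1, 19 were called lower and 14 higher with miR-28, and 28 lower and 19 higher with miR-708, where the shares over all genes were 23.5% and 23.3%, and 31.2% and 30.9%. ATP2A1 and KALRN in MCF10A, and PLCG2 and MYLK3 in hTERT RPE-1, are counted as higher but passed the filter on low values only through the mimic groups. The median log2 fold change of the list was 0.06 and 0.08 in MCF10A, beside 0.0056 and −0.0047 over all genes, and −0.08 and −0.21 in hTERT RPE-1, beside 0.0061 and 0.0021. With libraries scaled to an equal sum, the counts lower and higher became 1 and 13, and 3 and 18, in MCF10A, and 13 and 16, and 14 and 26, in hTERT RPE-1.

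Calmodulin carries the calcium signal to the kinase, and CALM2 and CALM3 are among the genes that encode it. In MCF10A, CALM2 rose with miR-708 from 13260 to 18885 (log2 fold change 0.51, adjusted p = 0.00484, limma), and the calmodulin-like CALML3 fell from 75 to 28 (−1.45, adjusted p = 0.0163, limma). No calmodulin gene of 6 tested was called with miR-28 in MCF10A, beside shares over all genes of 12.0% lower and 10.7% higher. In hTERT RPE-1, CALM3 was at −0.41 and −0.31 and was called lower with both mimics by limma, but neither call held with equal-sum scaling, where it was at 0.0046 with miR-708. CALML4 rose with miR-708 in hTERT RPE-1 (0.76, adjusted p = 0.00123, limma).

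CAMK2N1 encodes a protein that binds the catalytic domain of CaMKII and inhibits it. In MCF10A it was at 1103 with siNT, 1776 with miR-28 and 2132 with miR-708, with log2 fold changes of 0.72 (adjusted p = 0.115, limma) and 0.93 (adjusted p = 0.038, limma). In hTERT RPE-1 it was at 389, 1026 and 1496, with log2 fold changes of 1.40 (adjusted p = 0.00027, limma) and 1.97 (adjusted p = 1.3e-05, limma). CAMK2N1 was thus called higher in 3 of the 4 comparisons with siNT, in a fit that did not pair libraries by replicate number. Its relative CAMK2N2 did not pass the threshold in any of them. With the replicate number as a block, CAMK2N1 in MCF10A had adjusted p = 2.18e-05 with miR-708 (limma). The blocked value of CAMK2N1 with miR-28 is not given here, so the missing call is not read as a difference between the mimics.

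Among the other kinases that calmodulin regulates, MYLK and DAPK1 moved in opposite directions in the lines. MYLK, the myosin light chain kinase, rose in MCF10A from 82 to 194 and 166 (1.22 and 1.005, adjusted p = 0.00164 and 0.00234, limma). In hTERT RPE-1 it fell from 46624 to 14326 and 8803 (−1.70 and −2.40, adjusted p = 1.61e-06 and 8.93e-08, limma). The difference between the lines was −2.93 with miR-28 and −3.41 with miR-708, from limma estimates. It is given without a test, since opposite calls in the lines nearly fix its outcome.

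DAPK1, a death-associated kinase, was at 0.76 and 0.70 in MCF10A (adjusted p = 0.0105 and 0.0103, limma) and at −0.95 and −1.63 in hTERT RPE-1 (adjusted p = 0.00431 and 7.88e-05, limma). Its relatives DAPK2 (0.85 and 0.86) and DAPK3 (0.50 and 0.44) were also called higher with both mimics in MCF10A. CAMKK2, the upstream kinase of CaMKI and CaMKIV, was called lower in all 4 comparisons, at −0.33 and −0.51 in MCF10A, and at −0.23 and −0.90 in hTERT RPE-1 cells. Both miR-28 calls of CAMKK2 were lost with equal-sum scaling (adjusted p = 0.0687 and 0.194, limma).

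In hTERT RPE-1, MYLK2 was also lower with both mimics (−1.55 and −1.24), as were PHKG2, the catalytic subunit of phosphorylase kinase (−0.69 and −0.72), and EEF2K (−0.40 and −0.44), although the EEF2K call with miR-708 was lost with equal-sum scaling. CAMK1D was called higher with miR-28 (0.53, adjusted p = 0.000316, limma) and lower with miR-708 (−0.53, adjusted p = 0.000152, limma). Of the 13 kinases tested in MCF10A, 1 was lower and 4 higher with miR-28, and 2 were lower and 5 higher with miR-708, beside shares over all genes of 12.0% and 10.7%, and 17.3% and 15.5%. Of 15 tested in hTERT RPE-1, 6 were lower and 2 higher with miR-28, and 11 were lower and 2 higher with miR-708, beside 23.5% and 23.3%, and 31.2% and 30.9%.

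The phosphatase list holds calcineurin subunits, catalytic subunits of PP1 and PP2A, and the CaMKII phosphatases PPM1E and PPM1F. PPM1F was called lower in MCF10A with miR-708 (−0.41) and in hTERT RPE-1 with both mimics (−0.45 and −0.53), and the miR-708 calls were lost with equal-sum scaling. PPM1E rose in hTERT RPE-1 (0.75 and 0.97), as did PPP3R1, the regulatory subunit of calcineurin (0.38 and 0.55). In MCF10A, PPP1CC was lower with miR-28 (−0.41, a call lost with equal-sum scaling) and PPP2CB and PPP3CC were each higher with miR-708 (0.34 and 0.34). The counts were 1 lower and 0 higher, and 1 lower and 2 higher, of 11 tested in MCF10A for miR-28 and miR-708, beside shares over all genes of 12.0% and 10.7%, and 17.3% and 15.5%. In hTERT RPE-1 they were 1 lower and 3 higher, and 2 lower and 5 higher, of 11 tested, beside 23.5% and 23.3%, and 31.2% and 30.9%.

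Among genes that supply or remove calcium, ATP2B1, the plasma membrane calcium pump, fell in all 4 comparisons. In MCF10A it went from 4318 to 2685 with miR-28 and 1891 with miR-708 (−0.69 and −1.21, adjusted p = 0.00467 and 0.000104, limma). In hTERT RPE-1 it went from 3912 to 2228 and 2419 (−0.81 and −0.68, adjusted p = 0.000463 and 0.000709, limma).

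In hTERT RPE-1, the phospholipase C genes PLCB3 (−1.09 and −1.13) and PLCB4 (−0.60 and −1.38), the store-operated channel gene ORAI2 (−0.68 and −1.28) and the endoplasmic reticulum pump gene ATP2A2 (−0.51 and −0.71) were lower with both mimics. PLCG2 had means of 7 with siNT and of 27 and 46 with the mimics, and is given without a test since it passed the filter only through the mimic groups. In MCF10A, ITPR1 was at −0.48 and −0.52 and lost both calls with equal-sum scaling, and STIM2 rose with miR-708 (0.71, adjusted p = 0.00446, limma). The counts in this role were 2 lower and 1 higher, and 4 lower and 3 higher, of 21 in MCF10A, near or below the shares over all genes of 12.0% and 10.7%, and 17.3% and 15.5%. In hTERT RPE-1 they were 7 lower and 3 higher, and 9 lower and 5 higher, of 19, beside 23.5% and 23.3%, and 31.2% and 30.9%.

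Among substrates and partners in MCF10A, TIAM1 was called higher with miR-28 (0.43, adjusted p = 0.0462, limma), and KALRN, with means of 6 with siNT and 19 with miR-28, passed the filter only through the mimic groups. In hTERT RPE-1, HDAC5 fell from 890 to 514 and 353 (−0.79 and −1.35, adjusted p = 0.00057 and 8.03e-06, limma). HDAC4, which shares the binding of MEF2 factors with HDAC5, rose (0.63 and 0.60, adjusted p = 0.002 and 0.00167, limma). CREB1 (0.43 and 0.33) and ATF1 (0.45 and 0.61) rose with both mimics, and MEF2C rose with miR-708 (1.35, adjusted p = 0.00349, limma). Of 12 tested in MCF10A, 0 were lower and 2 higher with miR-28 and none was called with miR-708 by limma, beside shares over all genes of 12.0% and 10.7%, and 17.3% and 15.5%. Of 14 tested in hTERT RPE-1, 3 were lower and 5 higher, and 4 lower and 5 higher, beside 23.5% and 23.3%, and 31.2% and 30.9%.

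**Figure D4:**
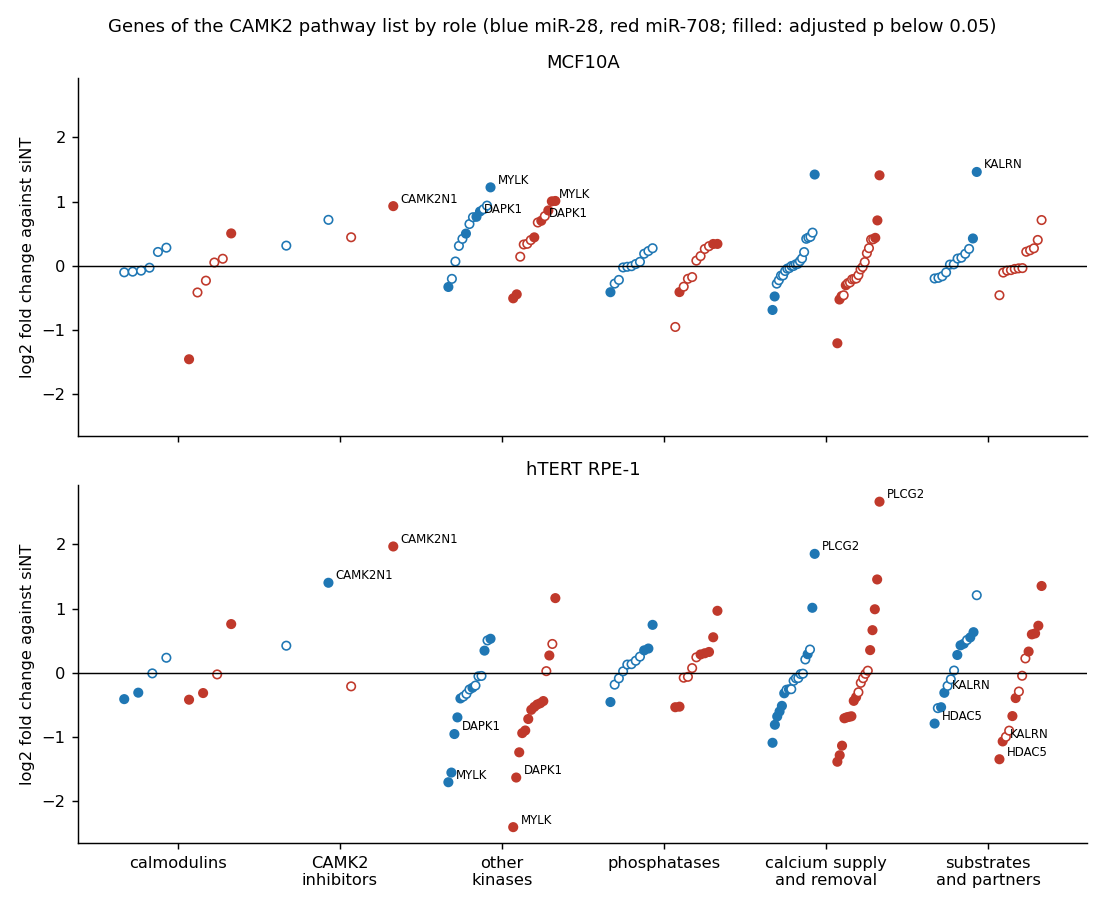
The log2 fold change against siNT (y axis) of the tested genes of the CAMK2 pathway list, grouped by role (x axis), in MCF10A (top) and hTERT RPE-1 (bottom). Each point is a gene, blue for miR-28 and red for miR-708, ordered by value within a role, and filled points have an adjusted p below 0.05. MYLK lies at 1.22 and 1.005 in MCF10A but at −1.70 and −2.40 in hTERT RPE-1, and CAMK2N1 lies above 0 in each.

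Markers of cell identity moved in both directions in MCF10A, where CAMK2B fell, and their part in the result was not tested. All 6 breast basal epithelial markers were listed in MCF10A. KRT14 (−1.71 and −2.29), TP63 (−1.08 and −1.29) and KRT5 (−0.46 and −0.91) were called lower with both mimics, although the KRT5 call with miR-28 was lost with equal-sum scaling. CDH1, EPCAM and ITGB4 were below 0 but did not pass the threshold with either mimic (adjusted p of at least 0.0637, limma). The summed level of the 6 markers was 135356 to 151376 with siNT, 87373 to 95699 with miR-28 and 62998 to 79966 with miR-708.

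Neuronal markers went the other way from CAMK2B in MCF10A. Of 6 markers 4 were listed, while SNAP25 and CAMK2A were not. MAP2 rose from 981 to 2282 and 3426 (1.25 and 1.86, adjusted p = 0.00324 and 0.000165, limma), and TUBB3 rose with miR-708 (1.06, adjusted p = 0.00262, limma). RBFOX3 had means of 9, 31 and 22 and passed the filter only through the mimic groups. The sum was 1094 to 1608 with siNT, 2509 to 3392 with miR-28 and 4066 to 4241 with miR-708. The sum of 4 mesenchymal markers overlapped between siNT (23616 to 40661) and the mimics (21866 to 64737 and 37983 to 87591), while among them COL1A1 rose from 100 to 236 and 187 (1.21 and 0.88, adjusted p = 0.00343 and 0.0102, limma). Of 4 pigment epithelial markers tested in MCF10A, MITF was called higher with both mimics (0.94 and 0.75, adjusted p = 0.00488 and 0.00891, limma). No other pigment epithelial marker was called there. Of 5 muscle markers 1 was listed.

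In hTERT RPE-1 the labelled tissue of origin was only in part visible. RPE65 and TYR, defining genes of retinal pigment epithelium, were not listed, and neither were the epithelial genes KRT5, KRT14, CDH1 and EPCAM. MITF, a transcription factor of pigmented cells, fell from 1908 with siNT to 1093 with miR-28 and 1291 with miR-708 (−0.80 and −0.56, adjusted p = 3.38e-05 and 0.000161, limma), and the miR-708 call was lost with equal-sum scaling. Of 4 tested pigment epithelial markers, 2 were called lower and 2 higher with miR-28, and 1 lower and 1 higher with miR-708 (limma). The shares over all genes were 23.5% and 23.3%, and 31.2% and 30.9%. BEST1 rose with miR-28 (0.47, adjusted p = 0.0151, limma). PMEL was at 189 ± 308 (SD, n = 3) with siNT and 2.1 and 7.37 with the mimics. It is counted among the 2 called lower with miR-28. Its siNT libraries were uneven, with an SD above the mean, so its fall is not read as a result. RLBP1 is counted as higher but passed the filter only through the mimic groups (means of 2.42 with siNT and 12.6 with miR-708). The summed level of the 7 pigment epithelial markers, 5 of them listed, was 1958 to 3299 with siNT, 1326 to 1362 with miR-28 and 1456 to 1558 with miR-708. These sums include the uneven PMEL. The summed neuronal markers overlapped between the groups there, at 4511 to 5017, 3392 to 6518 and 4547 to 5475. Among them MAP2 rose with both mimics (1.40 and 1.59, adjusted p = 0.00311 and 0.000836, limma), TUBB3 fell (−0.89 and −1.10, adjusted p = 0.000704 and 8.54e-05, limma), and SNAP25 rose with miR-28 (1.24, adjusted p = 0.00689, limma). COL1A1 of the mesenchymal markers fell (−2.17 and −3.86, adjusted p = 0.00764 and 0.000125, limma). Of the 4 mesenchymal markers, 1 was called lower and 3 were not called with miR-28. With miR-708, 2 were called lower and 2 were not called. Their sum was 1238583 to 1969296 with siNT, 1433108 to 1841799 with miR-28 and 927095 to 1069934 with miR-708. TNNT1 of the muscle markers fell (−1.10 and −1.18, adjusted p = 0.000501 and 0.000157, limma). The part of these markers in the higher level of CAMK2B was not tested. In bulk RNA, fewer cells of a type and less RNA per cell cannot be told apart.

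The depth was 19.4 to 31.7 M reads on genes in MCF10A and 23.8 to 40.4 M in hTERT RPE-1. A floor of 3 reads was worth 2.49 to 4.02 in the MCF10A libraries and 2.35 to 4.40 in the others. With 3 libraries against 3, an exact two-sided permutation test of a single gene cannot give less than 0.1 and so cannot pass 0.05.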

How the data were processed

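The 18 libraries were polyA RNAseq, prepared and sequenced at a core facility. The authors trimmed adapters, aligned reads to hg38 with HISAT2 2.1.0 and estimated RefSeq transcript abundance in Partek Flow by E/M. The authors deposited an expression signal for each gene listed in a line's table, namely the estimated reads over a size factor of the median-of-ratios kind. Their own fold changes and p-values were not used.

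The values were analysed as log2(value + 1) in limma 3.58.1 (R 4.3.3), with group means, a trend over the mean and Benjamini-Hochberg adjustment over all genes with at least 10 in at least 3 of 9 libraries of a line. Genes with an adjusted p below 0.05 were called. The difference between lines used both lines' estimates and standard errors with Welch–Satterthwaite degrees of freedom. The procedure was tested on simulated data. Depth came from the steps of low values, of which 80.4% to 84.2% were whole reads within 0.02 reads. The members and lists were chosen with earlier results of these data known. Named genes were the members and CAMK2A, called genes of the pathway list (per role at least the 2 with the largest changes among those with a mean of at least 50), the 3 genes most alike in pattern among genes with a mean of at least 100, the nearest tested gene on each side, and the genes ranked beside CAMK2B. Of the pathway list, 1 gene is not reported here, and the counts include it.

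Replicate numbers were checked as pairs by the correlation of same-numbered deviations from the group means. In MCF10A every pair with siNT was above 0.1 (0.11 to 0.30), and in hTERT RPE-1 they were 0.02 to 0.15. Between the mimics they were 0.02 to 0.18 in MCF10A and 0.13 to 0.28 in hTERT RPE-1. Libraries with different numbers were not compared, so whether the numbers mark pairs is not settled. Alternatives were another pseudocount, no filter, other scalings, no trend, the replicate block, each library left out, and the exon length. RefSeq (GRCh38.p14) gave the microRNA and gene positions, and GENCODE 3′ UTRs in hg38 the seed matches.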

Additional observations from a re-analysis of the deposited data

Results flagged for a closer look

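The response to the mimics differed between hTERT RPE-1 and MCF10A for the following genes. All values are the log2 fold change in hTERT RPE-1 minus that in MCF10A, from limma estimates with 3 libraries per group.

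CAMK2B moved in opposite directions in every library, with differences of 4.72 for miR-28 and 5.80 for miR-708. This difference was not tested, since CAMK2B was chosen by its values in MCF10A. CAMK2D differed by 0.85 with miR-28 (adjusted p = 0.000959) and 0.56 with miR-708 (adjusted p = 0.00805).

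Other pathway genes were called in both lines with opposite signs. Genes picked in this way nearly have to differ between the lines, so their differences are given without a test. With miR-28 these were MYLK at −2.93 and DAPK1 at −1.72. With miR-708 they were MYLK at −3.41, DAPK1 at −2.33, DAPK2 at −1.36, DAPK3 at −1.02, ATP2B4 at −1.11 and CASK at 0.71. Over all genes tested in both lines, 23.4% were called for a difference with miR-28 and 39.8% with miR-708. In hTERT RPE-1, the miR-708 calls of DAPK2, DAPK3 and ATP2B4 and the miR-28 call of KALRN were lost with libraries scaled to an equal sum, as was the miR-708 call of CASK in MCF10A. KALRN differed by −1.77 with miR-28, which is given without a test, since in MCF10A it passed the filter on low values only through the mimic groups.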

How the results depend on the processing

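Of 571 values recomputed under the alternatives for 42 results, 524 counted as unchanged. For results with an adjusted p, this means the same direction and the same side of the threshold. Other results, such as CAMK2B in MCF10A and between the lines, the pathway counts and the shares, have no threshold. For those, unchanged means only a limited move from the main value. The rises of CAMK2D in hTERT RPE-1 kept their direction and stayed called in each alternative. With a pseudocount of 10, CAMK2B in hTERT RPE-1 was at 0.97 and 1.29 in place of 1.92 and 2.39, and its difference between the lines was 3.55 with miR-28 and 4.35 with miR-708.

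Scaling to an equal sum moved the median of all genes by 0.12 and 0.14 for MCF10A, and by 0.09 and 0.32 for hTERT RPE-1 (miR-28 and miR-708). Calls lower and higher then went from 1772 and 1575 to 1163 and 2275, from 2549 and 2286 to 1619 and 3381, from 3407 and 3391 to 2709 and 3966, and from 4538 and 4486 to 2658 and 6794. For miR-28 in MCF10A they were 1373 and 1932 with equal upper quartiles. The equal sum gave CAMK2G 0.075 with miR-28 in MCF10A (0.034 with equal upper quartiles), −0.19 and 0.059 against siNT and 0.25 between the mimics in hTERT RPE-1 (adjusted p = 0.0424, limma), and 0.10 between the lines with miR-708. CAMK2D between the mimics in hTERT RPE-1 was at 0.20. Pathway genes called in MCF10A were then 1 lower and 13 higher with miR-28 and 3 lower with miR-708, and 14 were lower with miR-708 in hTERT RPE-1. With the length of all exons, CAMK2D shares were 53.1%, 56.1% and 63.0% for MCF10A, and 41.3%, 56.5% and 55.5% for hTERT RPE-1 (siNT, miR-28 and miR-708).

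With each library left out in turn, CAMK2D ranged from −0.028 to 0.068 with miR-708 in MCF10A (below 0 without siNT replicate 8 or miR-708 replicate 7) and from −0.15 to 0.028 between the mimics in hTERT RPE-1. CAMK2G ranged from −0.080 to 0.016 with miR-28 in MCF10A, from −0.31 to −0.23 with miR-28, from −0.28 to −0.23 with miR-708 and from −0.031 to 0.054 between the mimics in hTERT RPE-1, and from −0.13 to 0.0072 between the lines with miR-708. In MCF10A, pathway genes called with miR-28 ranged from 1 to 5 lower and 3 to 10 higher, and with miR-708 from 2 to 11 lower and 5 to 14 higher. The counts moved by over 1.5 times without siNT replicate 7, 8 or 9, miR-28 replicate 7, 8 or 9, or miR-708 replicate 8 or 9. The cause was not tested.

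With the replicate number as a block, no call of a CAMK2 gene changed. CAMK2D in MCF10A with miR-28 remained at −0.23 (adjusted p = 0.0888, limma), and CAMK2G in hTERT RPE-1 had adjusted p-values of 0.0138 and 0.0136 (limma). Pathway genes called in MCF10A were 5 lower and 10 higher with miR-28 and 9 lower and 15 higher with miR-708 under the block, and the miR-708 call of RBFOX3 was lost (adjusted p = 0.0519, limma). Whether the numbers mark pairs in hTERT RPE-1 was not settled. The blocked pathway counts there were 18 lower and 14 higher with miR-28 and 28 and 18 with miR-708. Depth limits CAMK2B in hTERT RPE-1, where siNT libraries held 3 or 4 reads of it.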
